A study of Homo sapiens with 6 samples.

Results

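The genes described here are 34 genes of the cell cycle and of DNA replication, out of 19970 protein-coding genes on chromosomes 1 to 22 and X. They were taken from a list of names, and each was matched to its position in the RefSeq gene table of GRCh38.p14. A gene was counted as carrying a peak where a peak overlapped the 1 kb around either end of the gene, and the summits within 50 kb of either end were counted separately. The study mapped the transcription factors HAND2, MEIS2 and TCF4 by CUT&Tag in SK-N-BE(2), a human neuroblastoma line long kept in culture, with amplified MYCN. CUT&Tag uses an antibody to bring a transposase to the bound protein, which then inserts sequencing adapters into nearby DNA. All libraries came from this 1 line, and no treatment or genetic change is given in the labels. There were 2 HAND2 libraries, 2 MEIS2 libraries and 1 TCF4 library, each with its own peak list, so TCF4 has no replicate check. No peak list of the IgG control was analysed here. Whether replicates were grown as separate cultures is not stated in the labels, so agreement between them may be technical.

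The cell cycle is driven by cyclins that switch on cyclin-dependent kinases (CDKs). D cyclins with CDK4 and CDK6 release the E2F factors from the retinoblastoma protein, and E2F then turns on genes for origin licensing and DNA synthesis. A later set of genes for mitosis is under FOXM1 and MYBL2. In neuroblastoma, MYCN and cyclin D1 with CDK4 are known drivers of proliferation, and HAND2 belongs to the group of factors that hold the sympathetic (adrenergic) identity of the cells. HAND2 and TCF4 are basic helix-loop-helix (bHLH) proteins that bind E-boxes, and MEIS2 is a homeodomain protein of the TALE class. The peak lists measure occupancy and not expression, so the cell identity was not checked by markers.

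Of the members where at least 3 libraries, both HAND2 libraries among them, had a peak at the 5′ end, the 6 with the highest lower HAND2 fold are shown. Of these only TOP2A had MEIS2 peaks at the 5′ end. Peaks of separate libraries do not show that the factors were on the same DNA together. Each is the 250 bases before a RefSeq transcript start (GRCh38.p14, for CHEK1 a start inside the gene), written 5′ to 3′ along the gene, with every E-box (CANNTG) in capitals.
TOP2A (chr17:40417897-40418146, minus strand): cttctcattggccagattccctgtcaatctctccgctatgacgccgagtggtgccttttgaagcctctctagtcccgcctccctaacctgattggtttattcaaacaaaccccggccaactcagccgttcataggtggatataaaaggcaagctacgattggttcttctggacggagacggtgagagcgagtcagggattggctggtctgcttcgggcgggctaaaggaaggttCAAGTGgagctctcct
E2F2 (chr1:23531234-23531483, minus strand): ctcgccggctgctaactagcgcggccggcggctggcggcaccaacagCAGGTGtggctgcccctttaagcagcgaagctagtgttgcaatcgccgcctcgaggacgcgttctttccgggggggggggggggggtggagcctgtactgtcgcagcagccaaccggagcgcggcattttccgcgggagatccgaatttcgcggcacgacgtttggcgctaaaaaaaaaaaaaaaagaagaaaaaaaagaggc
CHEK1 (chr11:125625974-125626223, plus strand): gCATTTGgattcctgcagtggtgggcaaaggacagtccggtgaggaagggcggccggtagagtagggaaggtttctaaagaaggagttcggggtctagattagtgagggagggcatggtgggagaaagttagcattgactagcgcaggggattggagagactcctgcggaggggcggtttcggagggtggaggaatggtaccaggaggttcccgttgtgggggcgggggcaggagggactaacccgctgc
ODC1 (chr2:10448328-10448577, minus strand): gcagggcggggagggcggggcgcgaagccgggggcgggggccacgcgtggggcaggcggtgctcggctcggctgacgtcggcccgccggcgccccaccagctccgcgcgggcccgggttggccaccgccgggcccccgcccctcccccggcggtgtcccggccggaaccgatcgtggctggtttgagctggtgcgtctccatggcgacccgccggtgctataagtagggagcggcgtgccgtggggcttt
MCM3 (chr6:52284743-52284992, minus strand): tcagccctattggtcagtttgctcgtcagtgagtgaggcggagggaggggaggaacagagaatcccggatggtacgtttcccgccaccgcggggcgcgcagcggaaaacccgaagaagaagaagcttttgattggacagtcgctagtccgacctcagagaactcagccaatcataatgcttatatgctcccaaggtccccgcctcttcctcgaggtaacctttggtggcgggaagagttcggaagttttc
CDC6 (chr17:40287629-40287878, plus strand): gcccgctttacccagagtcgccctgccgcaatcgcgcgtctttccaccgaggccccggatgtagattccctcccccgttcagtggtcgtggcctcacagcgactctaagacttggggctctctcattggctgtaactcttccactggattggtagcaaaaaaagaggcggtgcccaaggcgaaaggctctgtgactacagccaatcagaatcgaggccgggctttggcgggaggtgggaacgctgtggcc
The promoters of ODC1, MCM3 and CDC6 hold no E-box in these 250 bases, and those of TOP2A, E2F2 and CHEK1 hold 1 each. HAND2 and TCF4 peaks overlapped the former, but several summits lay outside the bases searched. At CDC6 the HAND2 replicate 2 and TCF4 summits lay 110 and 116 bp after the start. At MCM3 TCF4 lay 83 bp after it and HAND2 replicate 1 259 bp before it. At ODC1 HAND2 replicate 2 lay 511 bp before it. The sequence under those summits was not searched. The other 5′ summits at ODC1, MCM3 and CDC6 lay inside the bases searched. At ODC1 HAND2 replicate 1 lay 134 bp and TCF4 133 bp before the start. At MCM3 HAND2 replicate 2 lay 105 bp before it, and at CDC6 HAND2 replicate 1 lay 8 bp before it. At E2F2, whose promoter holds an E-box, every 5′ summit lay outside the bases searched. A match is a description of the letters and not a binding site.

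HAND2 replicate 1 had 30410 peaks and replicate 2 had 33484. MEIS2 had 9595 in replicate 1 and 13871 in replicate 2, while TCF4 had 30704. The median pile-up at the summit was 34, 41, 22, 13 and 60 fragments in that order. The HAND2 replicates overlapped at 78.5 and 71.6% of their peaks, the MEIS2 replicates at 24.6 and 16.8%. Every peak identifier of MEIS2 replicate 2 carries the word Flag and none of replicate 1 does, although the labels name the same antibody. MEIS2 results are therefore given by replicate as well. Folds are the authors' values, the fragments piled up at a summit divided by the background expected there, each with 1 added. They rank peaks within a list and do not compare levels between lists. Brackets after a fold hold its exact 95% Poisson counting interval, which covers counting error only.

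TCF4 was found at most of these genes, HAND2 at about 1 gene in 3 and MEIS2 at few in both replicates. A TCF4 peak lay at an end of 31 of the 34 genes (91.2%), against 53.9% of all protein-coding genes. A HAND2 region, a merged span with a peak of both replicates, lay at 12 (35.3%), against 19.1% of all genes. HAND2 replicate 1 alone had a peak at 13 (20.6% of all genes) and replicate 2 at 15 (27.8% of all genes). A MEIS2 region present in both replicates lay at 2, CDC6 and TOP2A, against 0.946% of all genes. MEIS2 replicate 1 had a peak at 10 (11.5% of all genes) and replicate 2 at 2 (2.18% of all genes). The 12 genes with a HAND2 region all carried TCF4 as well, a combination found at 17.8% of all genes. In this and the other combinations either end counted, and at MCM5 TCF4 lay at the other end from the HAND2 region. Over all genes, 3549 of the 3815 with a HAND2 region also carried TCF4, so this pairing is not particular to the members. CDC6 and TOP2A had regions of HAND2 and MEIS2 with TCF4, as did 0.661% of all genes. With MEIS2 replicate 1 alone, 7 members had peaks of both HAND2 replicates, MEIS2 and TCF4 (7.32% of all genes), namely CCND1, E2F1, FOXM1, CDC6, MCM7, AURKA and TOP2A. TCF4 with no HAND2 or MEIS2 peak was found at 13 members (24.8% of all genes), and 3 members had no peak of any library (42.7% of all genes). The genes were chosen with earlier results of these data known, so no test of the list was made.

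**Figure D1:**
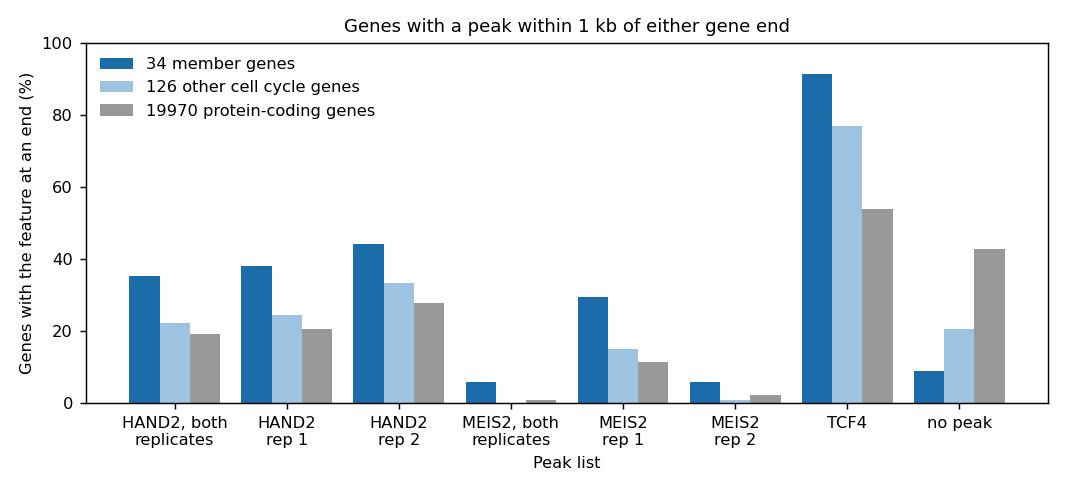
Share of genes (vertical axis, percent) with a peak within 1 kb of either end, for each peak list (horizontal axis), in the 34 member genes, 126 other cell cycle genes and all 19970 protein-coding genes. TCF4 stands at 91.2% of the members and 53.9% of all genes, and HAND2 in both replicates at 35.3 and 19.1%.

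Most of the HAND2 peaks at these genes were weak for their lists. The strongest gene-end peak of each member had a median fold of 2.96 in HAND2 replicate 1 and 3.8 in replicate 2, at a median percentile of 12.6 and 34.3 within the list. Over all genes with a gene-end peak the percentiles were 22.3 and 25.5. TCF4 peaks at the members had a median fold of 6.03 and a median percentile of 61.7, against 54.4 over all genes with one. The IgG background under them was a median of 19.97 fragments, and 21.97 over all genes with a gene-end TCF4 peak. It ranged up to 60.9 at the members and up to 2477.5 at a TCF4 peak of the amplified MYCN gene. The 250 bases before the start had a median GC content of 66.6% in the 26 members with a listed start and 62% in 15811 genes. The part of IgG background and GC content in these shares was not tested.

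**Figure D2:**
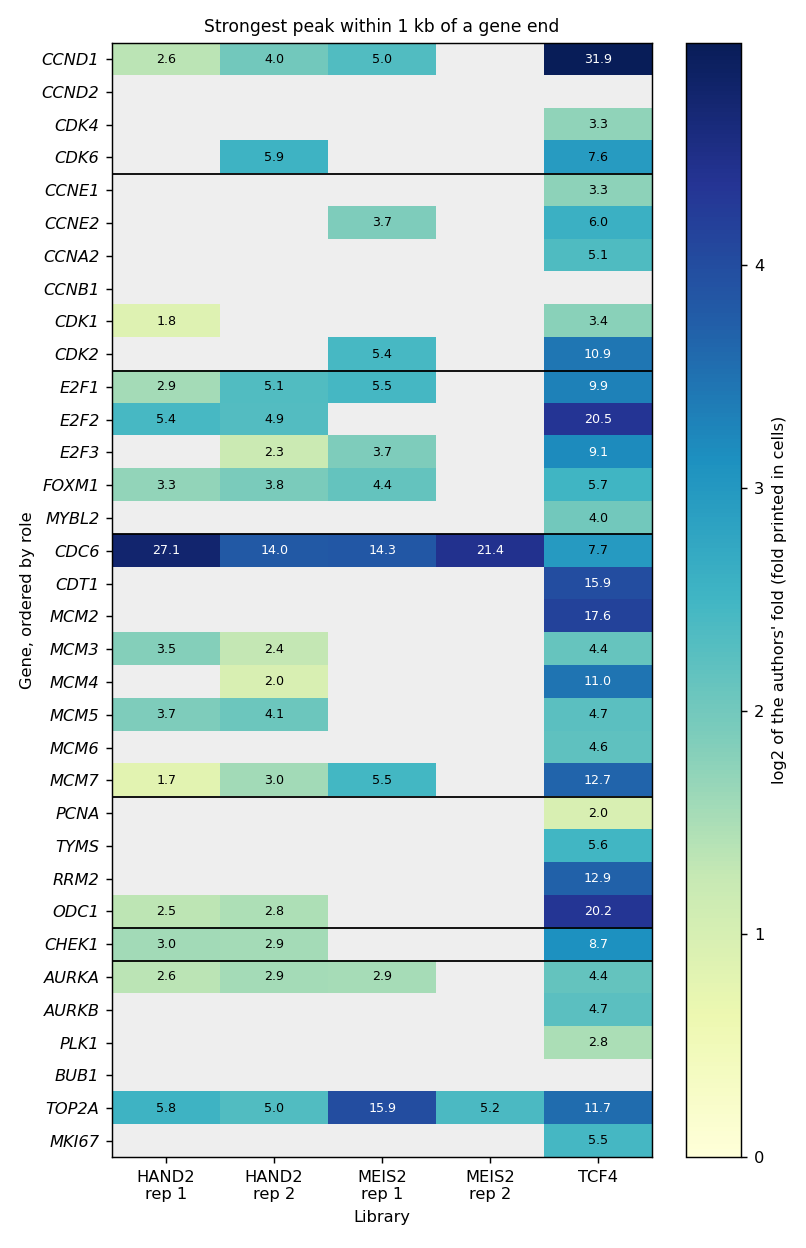
Authors' fold of the strongest peak within 1 kb of a gene end, for each of the 34 genes (vertical axis, ordered by role) and each of 5 libraries (horizontal axis). Colour is log2 of the fold, and grey marks genes with no peak. CDC6 and TOP2A are the members with peaks of all 5 libraries.

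Among the D cyclins and their kinases, CCND1 carried the strongest TCF4 peaks of all members. CCND1, the cyclin D1 gene (chromosome 11, 69641156 to 69654474), had a TCF4 peak of 30.4-fold (27.0 to 34.1) at its lower-coordinate end and one of 31.9 (28.8 to 35.3) that ran from 69642075 to 69651299 inside the gene. Both stood above the 98th percentile of the list, at 98.4 and 98.6. HAND2 at the lower-coordinate end of CCND1 had 2.56 (1.86 to 3.44) and 3.98 (3.09 to 5.05) in replicates 1 and 2, and at the higher-coordinate end 2.13 and 3.15. MEIS2 replicate 1 had 5.04 (3.43 to 7.16) at the lower-coordinate end and replicate 2 had no peak there. TCF4 at the higher-coordinate end of CCND1 had 4.97, so HAND2 and TCF4 had peaks at both ends. The stronger HAND2 peaks at the ends ranked at percentiles of 6.16 and 38.1. Inside the gene, at the summit of the 31.9-fold TCF4 peak, a HAND2 region had 4.87 and 6.57 in replicates 1 and 2. Its percentiles were 46.9 and 70.8.

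CDK6, a kinase partner of D cyclins (chromosome 7, 92604921 to 92836573), had HAND2 at its 5′ end at 5.86 (4.42 to 7.63) in replicate 2 and TCF4 at 7.61 (6.25 to 9.17). The replicate 1 peak of the same region, 4.42-fold, ended short of the window. The TCF4 summit lay 28 bp before a second RefSeq start inside the gene. Within 50 kb of its ends CDK6 held 6 summits of MEIS2 replicate 2 and 1 of replicate 1, and the strongest replicate 2 summit, 13.6-fold, lay 28521 bp inside the gene from the lower-coordinate end. CDK4, the other partner kinase, had TCF4 alone, at 3.30 (2.81 to 3.85). CCND2, the cyclin D2 gene, had no peak at an end, and its nearest TCF4 peak was 15409 bp away.

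The E, A and B cyclins with CDK1 and CDK2 are 6 genes, which drive S phase entry and mitosis. HAND2 regions lay at 0 of them (19.1% of all genes) and TCF4 at 5 (53.9% of all genes). A group of 6 genes is too small to be told apart from those shares. CDK2 (chromosome 12, 55966830 to 55972789) had TCF4 at 10.9-fold (9.70 to 12.3) at the lower-coordinate end, shared with an end of PMEL. A further TCF4 peak of 6.90 and a MEIS2 replicate 1 peak of 5.38 (4.42 to 6.49), on 77.0 IgG fragments, lay at the other end, shared with RAB5B. CCNE2, a cyclin E gene, had TCF4 at 6.03 and MEIS2 replicate 1 at 3.67 (2.55 to 5.14), with 32.3 IgG fragments under the latter. Both of these peaks also reached an end of NDUFAF6. CCNA2, the cyclin A2 gene, had TCF4 at 5.10, in a peak shared with an end of BBS7, and CCNE1 had TCF4 at 3.34. CDK1 had TCF4 at 3.43 and a HAND2 replicate 1 peak of 1.82 (1.36 to 2.38), which stood at percentile 0.441 of its list and had no counterpart in replicate 2. CCNB1, the cyclin B1 gene, had no peak at an end.

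Of the 5 cell cycle transcription factors, TCF4 lay at all (53.9% of all genes) and HAND2 regions at 3 (19.1%), E2F1, E2F2 and FOXM1. E2F2, an activating E2F gene (chromosome 1, 23505212 to 23531233), had HAND2 at 5.39 (3.74 to 7.54) and 4.94 (3.89 to 6.2) in replicates 1 and 2 and TCF4 at 20.5 (18.1 to 23.1). All 3 peaks were at its 5′ end. In HAND2 replicate 1 the site was split into 2 peaks, with summits 1601 bp after and 336 bp before the start, and the single replicate 2 peak had its summit 340 bp before it. The TCF4 summit lay 148 bp after the start. The E2F2 promoter shown above holds CAGGTG, an E-box, beginning at base −203 from the start, and TTTGGCGC, an E2F-type motif, at −42. All of these summits lay outside the promoter bases shown, so neither motif lay at a summit. Neither MEIS2 library had a peak at E2F2.

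At E2F1 (chromosome 20, 33675477 to 33686385) a HAND2 region of both replicates lay at the 3′ end, shared with NECAB3, at 2.92 (2.21 to 3.79) and 3.86 (2.99 to 4.91). TCF4 had 9.91 (8.53 to 11.4) there. Inside the gene near the 5′ end, HAND2 replicate 2 had 5.07 (3.85 to 6.55), MEIS2 replicate 1 had 5.46 (3.54 to 8.08) and TCF4 had 8.01, with summits 1128 to 1401 bp after the start. HAND2 replicate 1 had an overlapping peak of 3.44 at this site that stopped short of the window, so both replicates had HAND2 at each of the E2F1 sites. FOXM1, which drives mitotic genes (chromosome 12, 2857680 to 2877174), had HAND2 at 3.25 (2.23 to 4.595) and 3.8 (2.802 to 5.04), MEIS2 replicate 1 at 4.41 (2.71 to 6.84) and TCF4 at 5.70 (4.47 to 7.18). The 4 summits at FOXM1 lay within 486 bp of the higher-coordinate end, and the peaks of HAND2 replicate 2, MEIS2 and TCF4 also reached an end of RHNO1. E2F3 had TCF4 at 9.07 and MEIS2 replicate 1 at 3.71 beside a second RefSeq start, with a HAND2 replicate 2 peak of 2.26. MYBL2 had TCF4 alone, at 4.01.

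Origin licensing genes load the MCM2 to MCM7 helicase on DNA, a step that needs CDC6 and CDT1. TCF4 lay at all 8 (53.9% of all genes) and HAND2 regions at 3 (19.1%), CDC6, MCM3 and MCM5. CDC6 (chromosome 17, 40287879 to 40304657) had the highest gene-end folds of the members for both HAND2 libraries and for MEIS2 replicate 2, and these peaks were at its 3′ end. The HAND2 replicate 1 peak there, 27.1 (24.9 to 29.4), had its summit 2747 bp beyond the gene, where replicate 2 had a separate peak of 29.97 that did not reach the window. The HAND2 replicate 2 peak at the 3′ end, 14.0 (10.5 to 18.5), had its summit inside CDC6, 679 bp from the end. The MEIS2 peaks, 14.3 (9.39 to 21.1) and 21.4 (15.7 to 28.6), also had their summits inside the gene. Their pile-ups were 24 and 44 fragments, on 3.004 IgG fragments each. The median IgG background of the MEIS2 lists was 10.756 and 2.083 fragments in replicates 1 and 2. The 3′ TCF4 peak had 6.94 (4.62 to 10.05), from 26 fragments on 3.683 IgG fragments. At the 5′ end of CDC6 there was HAND2 at 2.35 (1.72 to 3.14) and 2.60 (1.94 to 3.41), TCF4 at 7.73 (6.46 to 9.19) and no MEIS2 peak. The 5′ TCF4 peak had 128 fragments on 19.972 IgG fragments, so the similar TCF4 folds of the ends came from different pile-ups. In both HAND2 lists the 3′ peak outranked the 5′ peak, at percentiles of 97.7 against 3.74 and 93.0 against 9.52. The 3′ summits lay 15694 to 19525 bp from the start, in the direction of RARA. The CDC6 promoter shown above therefore ranked below the 3′ end by fold in both HAND2 lists. In replicate 2 the pile-ups were alike, 50 fragments at the 5′ peak and 49 at the 3′ peak. The IgG background under them was 20.01 and 2.749 fragments, so these folds differed by background and not by pile-up. In replicate 1 the pile-ups were 44 and 560, on 22.96 and 24.96 IgG fragments, with the 3′ summit beyond the gene.

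The minichromosome maintenance genes differed in HAND2 and shared TCF4. MCM3 (chromosome 6, 52264015 to 52284742) had HAND2 at 3.53 (2.68 to 4.57) and 2.43 (1.85 to 3.13) and TCF4 at 4.37, with summits within 259 bp of the start. MCM5 (chromosome 22, 35400140 to 35455031) had HAND2 at its higher-coordinate end at 3.67 (2.15 to 5.90) and 4.15 (2.58 to 6.36), whereas TCF4, at 4.70, lay at the lower-coordinate end. A HAND2 replicate 1 peak of 2.37 also reached the lower-coordinate end of MCM5. At MCM7, whose 5′ end is shared with AP4M1, TCF4 had 12.7 (11.0 to 14.5) and MEIS2 replicate 1 had 5.54 (4.33 to 6.99). The HAND2 peaks there, 1.75 in replicate 1 and 2.17 in replicate 2, did not overlap each other. Weaker TCF4 peaks of 3.87 and 5.64 and a HAND2 replicate 2 peak of 2.96 lay at the 3′ end of MCM7. MCM2 had TCF4 at 17.6 (15.6 to 19.8), MCM4 at 11.0 and MCM6 at 4.56. The MCM2 peak also reached an end of TPRA1, and the MCM4 peak an end of PRKDC. MCM4 also had a HAND2 replicate 2 peak of 1.96. CDT1 (chromosome 16, 88803789 to 88809258) had 1 broad TCF4 peak of 15.9-fold (14.0 to 18.0), from 88803002 to 88812788, that covered both ends of the gene. This peak also reached ends of APRT and GALNS. Its summit lay 2492 bp beyond the 3′ end, so that fold does not describe the CDT1 promoter.

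CDC6 and TOP2A lie near each other on chromosome 17, with 83868 bp between them and RARA, the retinoic acid receptor alpha gene, in that gap. The 2 members with MEIS2 in both replicates are thus neighbours. Their 50 kb windows overlap, and 4 HAND2 replicate 1 summits, 3 of replicate 2, 3 and 1 of the MEIS2 replicates and 3 of TCF4 were counted for both. From 50 kb before CDC6 to 50 kb beyond TOP2A, a span of 230.0 kb, HAND2 had 22 peaks in replicate 1 and 21 in replicate 2, MEIS2 had 18 and 8, and TCF4 had 26. The strongest HAND2 peak of replicate 1 in the span lay in RARA, at 30.2-fold, and that of replicate 2 between CDC6 and RARA, at 29.97. TCF4 reached 57.5 beside IGFBP4, on the far side of TOP2A. Without this span HAND2 lay at 10 members and MEIS2 in both replicates at 0.

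**Figure D3:**
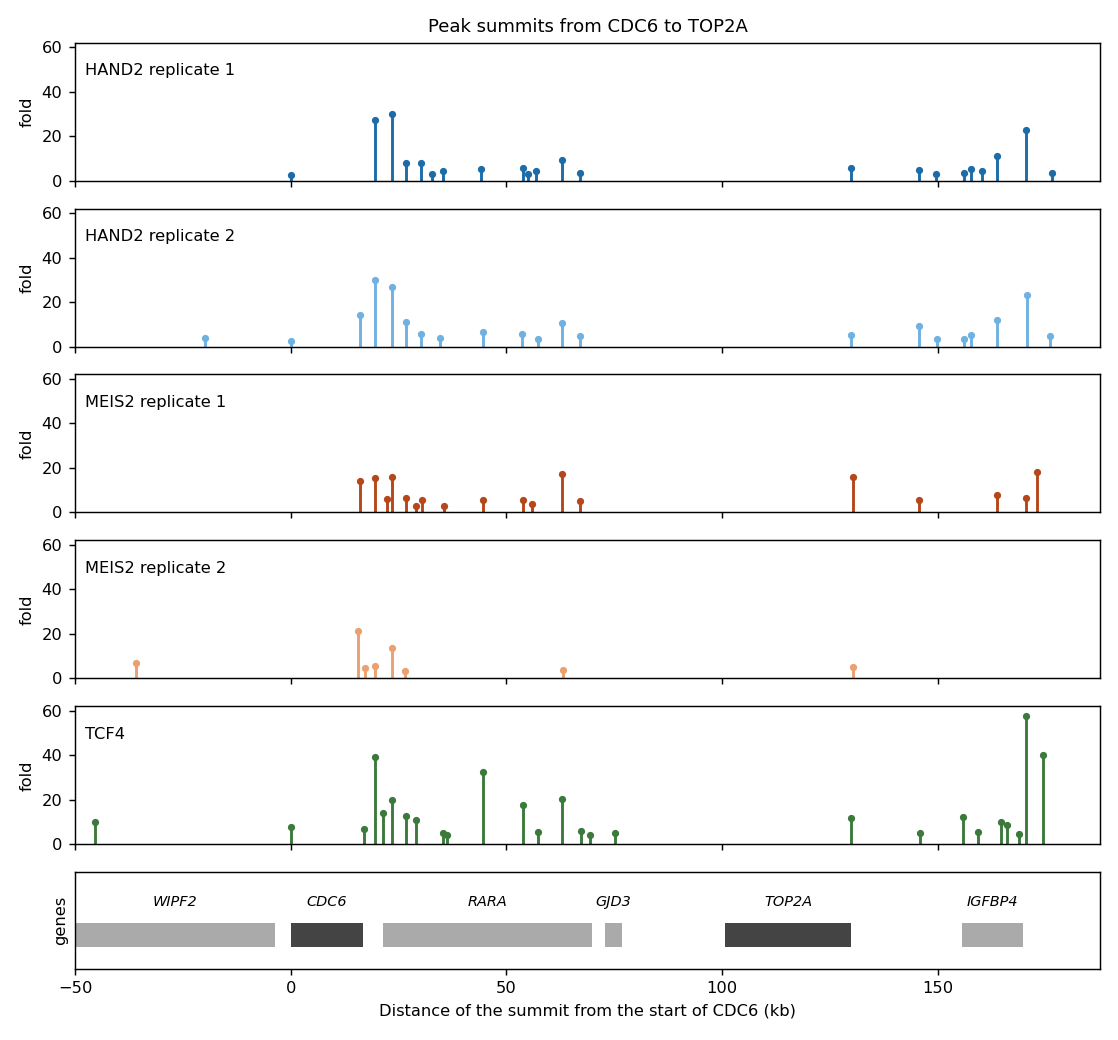
Peak summits of 5 libraries over the span from CDC6 to TOP2A (horizontal axis: kb from the start of CDC6) with the authors' fold (vertical axis). Bars at the bottom are genes, CDC6 and TOP2A in dark grey. In the CDC6 end of the span tall HAND2 and MEIS2 summits stand inside the 3′ part of CDC6, between CDC6 and RARA and inside RARA, and a summit of all 5 libraries stands at the 5′ end of TOP2A.

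TOP2A, which encodes DNA topoisomerase II alpha (chromosome 17, 40388525 to 40417896), had peaks of all 5 libraries at its 5′ end. HAND2 had 5.85 (4.38 to 7.66) and 5.01 (3.84 to 6.42), MEIS2 15.9 (11.6 to 21.2) and 5.23 (3.17 to 8.2), and TCF4 11.7 (9.69 to 14.1). MEIS2 replicate 1 ranked this peak at percentile 94.9 and replicate 2 at 28.5. The HAND2 summits lay 4 bp before and 48 bp after the start, the MEIS2 summits 285 and 323 bp before it and the TCF4 summit 175 bp after it. The TOP2A promoter shown above holds TGACAG, the core MEIS motif, on the reverse strand beginning at base −230 from the start, and an E-box, CAAGTG, at −16. IgG background at the TOP2A summits was 6.65 to 12.01 fragments.

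Of the 4 genes of DNA synthesis and its precursors, TCF4 lay at all (53.9% of all genes) and HAND2 at 1 (19.1%), ODC1. ODC1 encodes ornithine decarboxylase, the first enzyme of polyamine synthesis and a known MYC target (chromosome 2, 10439968 to 10448327). It had TCF4 at 20.2 (18.7 to 21.8) and HAND2 at 2.54 (2.03 to 3.15) and 2.77 (2.24 to 3.39), all at the 5′ end. The HAND2 peaks at ODC1 stood at percentiles of 5.93 and 12.6 and had 40.1 and 35.0 IgG fragments. RRM2, a ribonucleotide reductase subunit gene on the same chromosome, had TCF4 at 12.9 (11.8 to 14.1). TYMS, the thymidylate synthase gene, had 5.61, and PCNA, the replication clamp gene, had 1.96 (1.58 to 2.40), shared with an end of CDS2. PCNA carried the lowest TCF4 fold of the members with a peak, at percentile 0.362 of the list. CHEK1, a checkpoint kinase gene (chromosome 11, 125625136 to 125681124), had HAND2 at 2.96 (2.36 to 3.67) and 2.94 (2.38 to 3.6) and TCF4 at 8.65 (7.61 to 9.79). The 3 summits at CHEK1 lay 7 to 12 bp before a RefSeq start. IgG background there was 33.3 to 35.4 fragments. Without peaks of 30 or more IgG fragments ODC1 and CHEK1 drop out, and HAND2 lay at 10 members (14.1% of all genes) and TCF4 at 21 (40% of all genes).

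Of the 6 genes of mitosis and chromosome structure, HAND2 regions lay at 2 (19.1% of all genes), AURKA and TOP2A. AURKA, a spindle kinase gene (chromosome 20, 56369390 to 56392215), had HAND2 at 2.56 (1.85 to 3.47) and 2.94 (2.22 to 3.82), MEIS2 replicate 1 at 2.90 (1.76 to 4.55) and TCF4 at 4.38 (3.44 to 5.50). All 4 summits at AURKA lay 169 to 212 bp outside its higher-coordinate end, which is shared with CSTF1. MKI67, the gene of the Ki-67 antigen, had TCF4 at 5.46, AURKB at 4.74 and PLK1 at 2.81, with no HAND2 or MEIS2 peak at an end. BUB1, a spindle checkpoint kinase gene, had no peak at an end and no summit within 50 kb in any library.

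The windows set which genes count. CHEK1, whose HAND2 region began 942 bp from the gene end, was the member just inside the 1 kb limit. E2F3 at 1439 bp and RRM2 at 1726 bp were just outside.

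HAND2, TCF4 and MEIS2 replicate 1 peaks lay at the 5′ end of more members than at the 3′ end, as they did over all genes, and MEIS2 replicate 2 had 1 at each. The strand is known here for 26 members. TCF4 had a peak at the 5′ end of 24 and at the 3′ end of 4, against 52.9 and 12.3% of the 15811 genes with a known strand. HAND2 had 8 and 10 at the 5′ end in replicates 1 and 2 (18.4 and 25.4% of all stranded genes), and 2 and 3 at the 3′ end (5.21 and 6.6%). MEIS2 had 4 and 1 at the 5′ end (10.6 and 1.4%), and 1 and 1 at the 3′ end (2.18 and 1.01%), the latter both at CDC6. Of the 24 TCF4 peaks at the 5′ end, 19 had their summit within 300 bp of a RefSeq start, with a median distance of 168.5 bp. HAND2 summits there had median distances of 134 and 255.5 bp. Of the strongest TCF4 peaks at the 31 members, 12 also reached the end of another gene. For MEIS2 replicate 1 it was 6 of 10, and for HAND2 3 of 13 and 4 of 15 in replicates 1 and 2. These peaks cannot be assigned to the member alone. The share of such peaks over all genes was not counted.

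**Figure D4:**
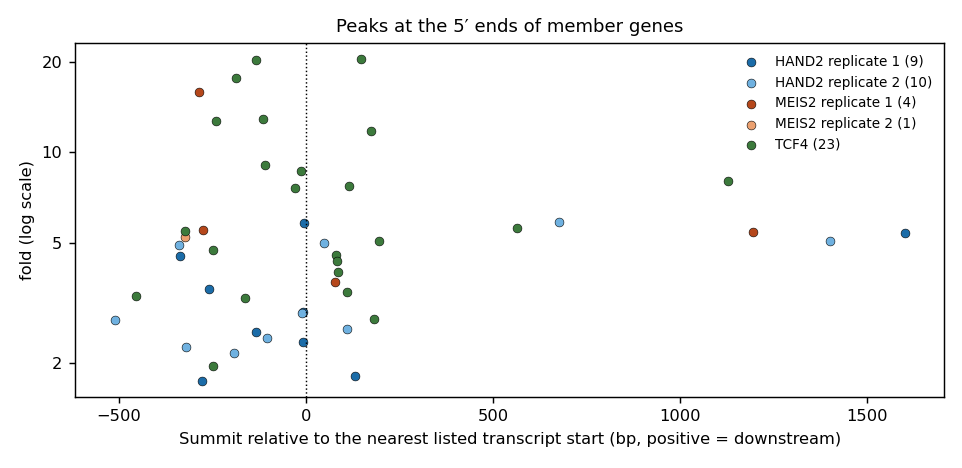
Peaks at the 5′ ends of the members with a known strand: distance of the summit from the nearest RefSeq transcript start (horizontal axis, bp) and the authors' fold (vertical axis, log scale). Numbers in the key count the peaks drawn, and the TCF4 peak of CDT1, 7961 bp from the start, is left out. Most summits stand within 300 bp of the start.

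The promoters of the members held E2F-type and CCAAT motifs more often, and E-boxes about as often, as other promoters. In the 250 bases before the start, on both strands, CANNTG was found in 16 of 26 members (61.5%) and in 57.8% of 15811 promoters. Forms of it were CATCTG in 2 (7.69% against 9.87%), CAGCTG in 4 (15.4 against 13.2%) and CACCTG in 4 (15.4 against 17.1%). TGACAG, the MEIS core, was found in 2, TOP2A and CCNE1 (7.69 against 11.9%). TTTGGCGC was found in E2F1, E2F2 and MCM6 (11.5 against 0.715%) and TTTCGCGC in MCM6 and MCM7 (7.69 against 0.689%). CCAAT, the NF-Y motif, was found in 17 (65.4 against 34.4%), and 4 of its matches were in TOP2A. TTTGAA, a form of the CHR element of mitotic genes, was found in 5 (19.2 against 10.9%). CACGTG, the E-box form known for MYC proteins, is a form of CANNTG chosen here after the matches were seen. CCNB1, CDK4, MCM2, MCM7, MYBL2 and PLK1 held it (23.1 against 7.79%), CDK4 with 3 copies beginning at bases −216, −196 and −101 from the start. These are counts of letters in the windows searched, with no test.

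Within 50 kb of the gene ends the members differed from each other widely. The median member had 2 and 2.5 HAND2 summits, 1 and 0 MEIS2 summits and 3 TCF4 summits, and the median over all genes was 1 and 1, 0 and 0, and 2. The counts ran from 0 to 14 and 17 for HAND2, 0 to 12 and 7 for MEIS2 and 0 to 15 for TCF4. MCM5 had the most HAND2 summits, 14 and 17 in replicates 1 and 2, then TOP2A with 14 and 12, CDC6 with 12 and 12, CCND1 with 10 and 14 and ODC1 with 11 and 12. No HAND2 summit of replicate 1 lay near 12 of the 34 genes (40.7% of all genes) and none of replicate 2 near 9 (36.1%). TCF4 had no summit near BUB1 alone (24.5% of all genes had none). CDT1 and TOP2A had 15 TCF4 summits each, and CDT1 had 2 and 4 of HAND2.

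**Figure D5:**
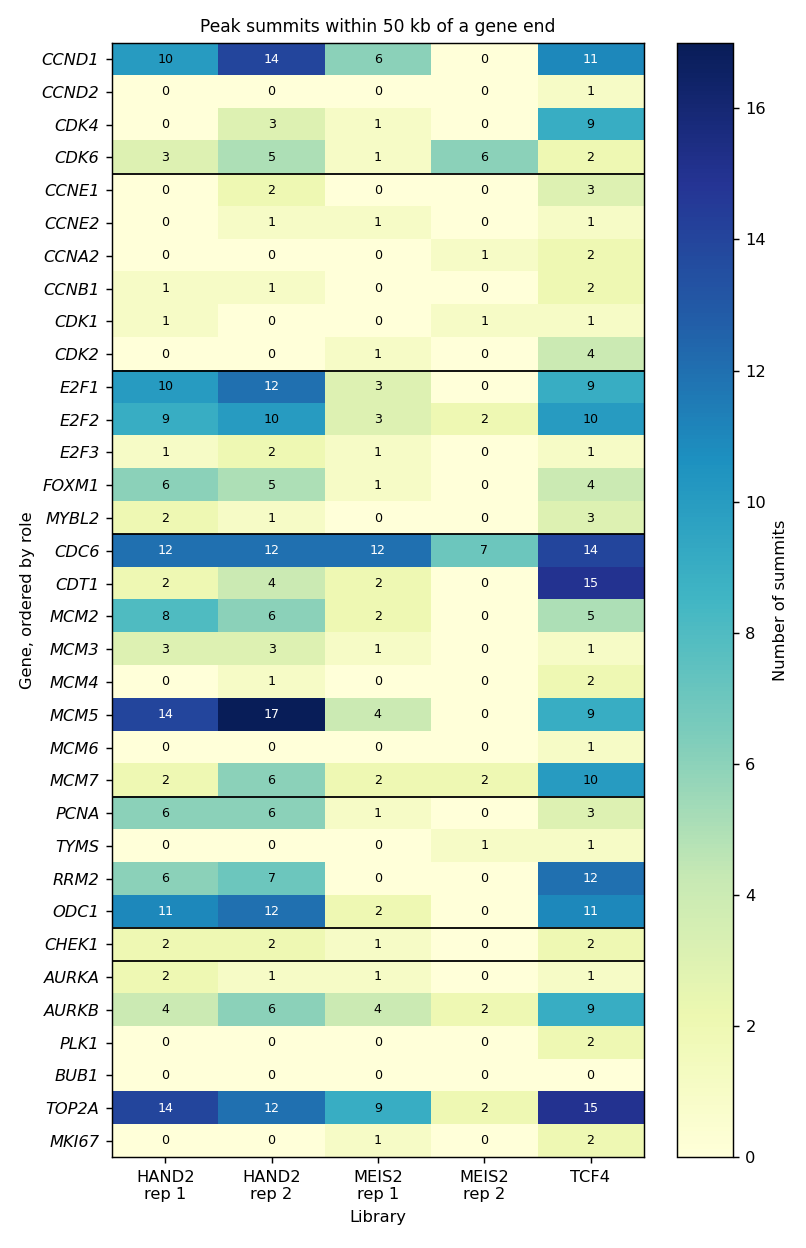
Number of peak summits within 50 kb of a gene end for each of the 34 genes (vertical axis) and 5 libraries (horizontal axis). Colour and printed numbers give the count. HAND2 and TCF4 summits gather at CCND1, E2F1, E2F2, CDC6, MCM5, ODC1 and TOP2A, and BUB1 has none.

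The HAND2 regions within 50 kb of members numbered 101, at 20 of the 34 genes. The share of all genes with such a region was not counted. Of the 101, 73.3% overlapped a TCF4 peak and 7.92% a MEIS2 region, against 53.6 and 8.72% of all 23304 HAND2 regions. The 23304 were not limited to regions within 50 kb of a gene, so differences from them may not be particular to the members. The 101 were weaker than most, with a median percentile of 30.6 (lower of the replicates) against 49.4. The strongest by that measure lay in RARA, 6775 bp from CDC6, at 30.2 and 26.7-fold. The region between CDC6 and RARA followed at 27.1 and 29.97, then one 46548 bp from ODC1 at 23 and 26.9 and one beside IGFBP4, 40604 bp from TOP2A, at 22.7 and 23.2. The fifth lay 35184 bp from MCM3, at 11.2 and 12.2, with no TCF4 peak. AURKB, with TCF4 alone at its end, had a region 12077 bp away where HAND2 had 7.05 and 9 and both MEIS2 libraries had peaks, 17.1 in replicate 1 (percentile 96.2) and 6.86 in replicate 2 (57.6). The lists do not tie a distal region to a gene.

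Other genes of the pathway, 126 outside the members, had HAND2 and TCF4 at shares between those of the members and of all genes. HAND2 regions lay at 28 (22.2%), against 19.1% of all genes. TCF4 lay at 97 (77%), against 53.9%, and MEIS2 in both replicates at 0, against 0.946%. MEIS2 replicate 1 had a peak at 19 (15.1%) and replicate 2 at 1, ORC5, an origin recognition gene. By role, HAND2 regions lay at 6 of 20 genes of origin recognition and firing, 6 of 15 other cyclins, kinases and phosphatases, 4 of 10 checkpoint genes, 6 of 32 mitosis genes, 4 of 27 fork genes, 1 of 8 CDK inhibitors and 1 of 14 genes of the RB family and other E2F factors. The highest lower-replicate folds were at GINS4, a replication helicase cofactor gene, with 11.8 and 13.6, CDC25B, a CDK-activating phosphatase gene, with 9.68 and 12.4, and BIRC5, the survivin gene, with 9.22 and 9.68. CDC25B had these peaks at its 3′ end, and GINS4 and BIRC5 at the higher-coordinate end.

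ORC6, an origin recognition gene, had 7.74 and 7.67 at an end shared with VPS35, with MEIS2 replicate 1 at 7.60 and TCF4 at 11.5. All 4 summits at ORC6 lay 270 to 272 bp before the start, on 50.03 to 56.03 IgG fragments. CDKN1A, the gene of the CDK inhibitor p21, had HAND2 at 5.21 and 6.69 and no TCF4 or MEIS2 peak. CLSPN, a checkpoint adaptor gene, had 5.01 and 5.24 with TCF4 at 20.8. CKS1B, a CDK subunit gene, had 3.66 and 3.93 at its 5′ end and a replicate 1 peak of 7.9 at its 3′ end. RBL2 and GINS3 had lower-replicate folds of 3.67 and 3.51.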

How the data were processed

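CUT&Tag peak lists of 5 libraries were used. Per the submitters' processing notes, the authors used hg38, MACS3 3.0.0a6, Bowtie2 and bcl2fastq 2.17, and no Bowtie2 version is given there. The deposited lists hold, per peak, the fold (a ratio of summit pile-up to local background) and the −log10 p and −log10 q values, called per sample by the authors. Their options: not given in the sources used here.

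Chromosomes 1 to 22 and X were used, which dropped 0, 0, 3, 5 and 7 peaks. Gene ends are those of RefSeq, GRCh38.p14. The transcript start table matched 26 of 34 members and gave the strand. The pile-up was recovered as the whole number matching fold and p within 5e-05, which was tested on simulated data. The step of the background values gave 1 scaled IgG fragment, and 43.0 to 68.3% of backgrounds above the lowest were whole multiples of it within 0.03. IgG fragments are thus a background level. Regions are merged spans with overlapping peaks (at least 1 bp) of both replicates. Where several peaks reached a gene end, the strongest is given. Members and lists were chosen with earlier results of these data known. Genes named with values are members with a HAND2 or MEIS2 region, the 5 with the highest TCF4 folds, and the 10 other pathway genes with the highest lower HAND2 fold, of which 1 is not reported here. The remaining members are given in brief. CACGTG was added after matches were seen. No test across genes was made. Analyses used Python 3.11.15, SciPy 1.17.1 and pandas 2.3.3.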

Additional observations from a re-analysis of the deposited data

How the results depend on the processing

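The counts of members with HAND2, 8 to 15, and with TCF4, 21 to 31, stayed within 1.5 times the given 12 and 31 under every alternative tried for them. The share of all genes moved as well, from 14.1 to 27.8% for HAND2 and from 40 to 56.1% for TCF4 where it was counted. With the 5′ end only the counts were 8 and 24 of 26 genes (16.9 and 52.9% of all stranded genes). Without HAND2 replicate 1 the count was 15 (27.8% of all genes) and without replicate 2 it was 13 (20.6% of all genes). MEIS2 in both replicates moved from 2 to 1 with the 5′ end only (0.759% of all stranded genes) and with the summit inside the window. It moved to 0 without the span from CDC6 to TOP2A, an alternative chosen after seeing the data. The share of all genes was not counted with the summit inside the window or without that span. Leaving out MEIS2 replicate 1 gave 2 (2.18% of all genes) and leaving out replicate 2 gave 10 (11.5% of all genes). The median number of summits per member fell with a 10 kb window to 1 for HAND2 replicate 1, 1 for HAND2 replicate 2, 0 for MEIS2 replicate 1 and 1 for TCF4, and with 100 kb it was 4.5 for HAND2 replicate 2. The other pathway genes with HAND2 numbered 24 to 42 against 28, and the share of all genes was 15.6 to 27.8% against 19.1%. Of 51 alternatives, 42 stayed within 1.5 times. No paired analysis was possible because the results are counts of genes from peaks called separately in each library, with no value for a library where no peak was called, and none comes from a test. The MEIS2 lists are the shallowest, at 0.248 and 0.367 of the IgG depth against 0.785 to 0.931. Absence of a MEIS2 peak is therefore not taken as absence of MEIS2. Replicate 2, the deeper of them, had gene-end peaks at 2 members and replicate 1 at 10. The part of depth in the missing peaks was not tested.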
